A study of Homo sapiens with 4 samples.

Results

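The genes described here are 10 members of the NF-kappaB system, taken by symbol from a table of 57815 genes. They comprise the subunit genes NFKB2 and RELB, the feedback inhibitor genes NFKBIA, NFKBIZ and TNFAIP3, the chemokine genes CXCL1, CXCL2, CXCL3 and CCL20, and the adhesion gene ICAM1. All 10 have a single row in the table. RNA was measured in AGS and MKN1, established human gastric cancer cell lines, after transfection with Lipofectamine 2000. The transfected small interfering RNA (siRNA) was either aimed at HOXB9 (siHOXB9) or scrambled (siScramble). The 4 groups were AGS siHOXB9, AGS siScramble, MKN1 siHOXB9 and MKN1 siScramble, with 1 library of poly-A RNA in each, so no group has a replicate. The labels call both siScramble groups wild type and both siHOXB9 groups HOXB9 knockdown, and each knockdown stands on cells of 1 line. The study looked for potential targets of HOXB9, a homeobox transcription factor.

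NF-kappaB is a family of dimeric transcription factors that are kept in the cytoplasm by IkappaB proteins and are released when the IKK kinases mark these inhibitors for degradation. Released dimers bind kappaB sequences and switch on chemokines, adhesion molecules and their own inhibitors, which closes a feedback loop. In a separate, slower branch the p100 protein made from NFKB2 is processed to p52, which pairs with RELB. Gastric epithelial cells use this system to call neutrophils and other leukocytes to the mucosa, for example in infection with Helicobacter pylori.

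The 9 members with a promoter window each hold a kappaB sequence in front of a transcription start. Stretches of 100 bases that hold such sequences are printed here, from RefSeq (GRCh38.p14). The table of windows, from 250 bases before to 50 after a start, has 12 windows for 9 of the members and none for RELB. A match to the 10-base kappaB consensus, on either strand, lies in 10 of these 12 windows and in 8 of the 9 genes, while 5.91% of all 35116 windows hold one. The 9-base core word GGAATTTCC, on either strand, lies in 6 of the 9 genes and in 0.461% of all windows. It overlaps a consensus match in each of these genes except ICAM1. The genes with a core word are CXCL1, CXCL2, CXCL3, NFKBIA, NFKBIZ and ICAM1. A match of letters shows no binding.

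The windows of the 3 CXCL genes are shown because they are nearly the same sequence in front of genes whose RNA levels differed. They run from base -100 to base -1 of each start, with the consensus match in capitals (a match on each strand, offset by a base, gives its 11 letters).
CXCL1, chr4:73869293-73869392 forward strand: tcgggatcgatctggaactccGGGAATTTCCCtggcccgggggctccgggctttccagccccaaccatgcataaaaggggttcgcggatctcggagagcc
CXCL2, chr4:74099196-74099295 reverse strand: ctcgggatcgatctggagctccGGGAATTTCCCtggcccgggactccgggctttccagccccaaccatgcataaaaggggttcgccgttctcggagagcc
CXCL3, chr4:74038690-74038789 reverse strand: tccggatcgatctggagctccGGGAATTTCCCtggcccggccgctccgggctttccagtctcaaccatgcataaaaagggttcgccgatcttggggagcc

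The match begins at base -79 in CXCL1 and CXCL3 and at base -78 in CXCL2, and its 11 letters are identical in all 3 genes. The 100 bases of CXCL1 differ from those of CXCL2 by 6 single-base changes, insertions or deletions and from those of CXCL3 by 10, and those of CXCL2 and CXCL3 differ by 11.

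The windows of the inhibitors, of NFKB2 and of CCL20 are shown for comparison, with the consensus match in capitals. That of ICAM1 holds the core word alone, in capitals.
NFKBIA, chr14:35404750-35404849 reverse strand: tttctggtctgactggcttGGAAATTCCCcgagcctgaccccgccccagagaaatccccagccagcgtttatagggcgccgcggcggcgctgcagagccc
TNFAIP3, chr6:137867159-137867258 forward strand: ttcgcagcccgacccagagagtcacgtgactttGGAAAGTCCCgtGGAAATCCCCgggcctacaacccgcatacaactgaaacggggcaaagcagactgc
NFKBIZ, upstream start, chr3:101827740-101827839 forward strand: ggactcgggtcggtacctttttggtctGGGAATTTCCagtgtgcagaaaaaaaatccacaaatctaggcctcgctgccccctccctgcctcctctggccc
NFKB2, middle start, chr10:102394418-102394517 forward strand: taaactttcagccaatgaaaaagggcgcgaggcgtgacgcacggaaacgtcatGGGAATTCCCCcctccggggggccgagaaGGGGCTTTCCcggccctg
CCL20, chr2:227813742-227813841 forward strand: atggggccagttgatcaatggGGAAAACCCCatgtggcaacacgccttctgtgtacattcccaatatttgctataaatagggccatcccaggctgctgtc
ICAM1, chr19:10270890-10270989 forward strand: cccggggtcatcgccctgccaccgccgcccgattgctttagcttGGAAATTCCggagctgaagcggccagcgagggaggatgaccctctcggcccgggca

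The windows printed for NFKBIA, TNFAIP3 and CCL20 run from base -100 to base -1, that of NFKBIZ from -250 to -151, that of NFKB2 from -160 to -61 and that of ICAM1 from -230 to -131. TNFAIP3 holds 2 consensus matches, at -67 and -55, and the middle start of NFKB2 also holds 2, at -107 and -78. In NFKBIA the match begins at -81 and in CCL20 at -79, close to its place in the CXCL genes. The upstream start of NFKBIZ has it at -223, farther from the start than in those genes.

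**Figure D1:**
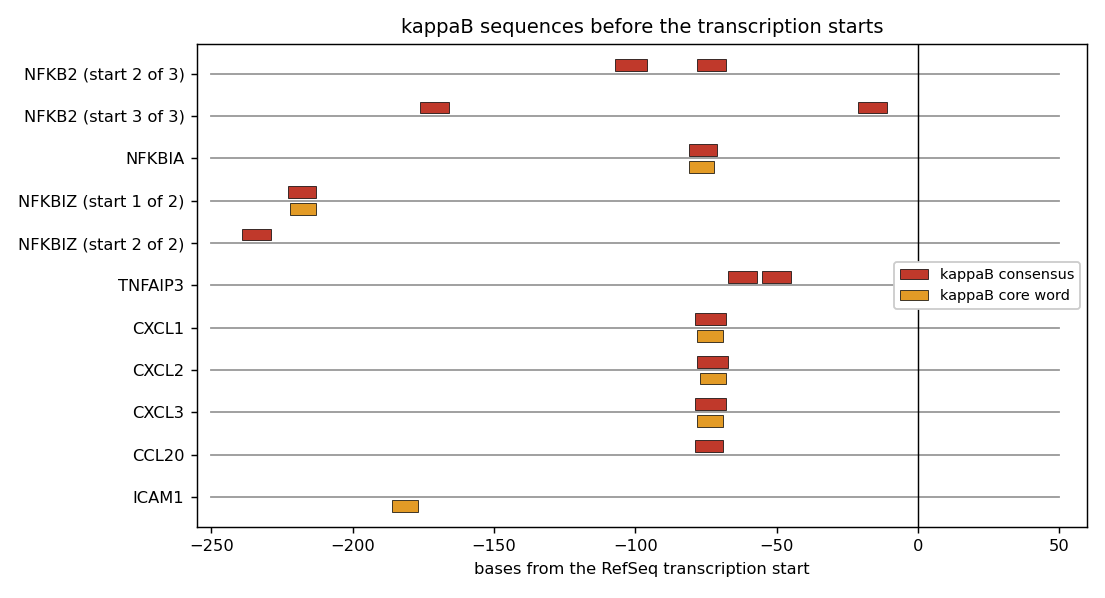
Places of kappaB sequences in the RefSeq windows of the members, in bases from the transcription start on the horizontal axis, with 1 row per start that holds a match; red boxes are consensus matches and orange boxes the core word. CXCL1, CXCL2, CXCL3, CCL20 and NFKBIA carry a match that begins between -81 and -78, and the matches of NFKBIZ begin at -223 and -239.

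Values are the authors' FPKM, in which the fragments of a gene are divided by its length and by the fragments of the library. Depth, estimated from the steps between low values, was about 10650000 to 13010000 fragments per library. HOXB9 itself was at 4.44 FPKM with siHOXB9 and 16.4 FPKM with siScramble in AGS, and at 0.218 and 1.14 FPKM in MKN1 in the same order. The MKN1 values correspond to about 5.38 and 30.5 fragments, so the target was at a low level in that line. The epithelial keratin KRT8 was at 1077 FPKM or more in all 4 libraries, whereas EPCAM was at 359 and 328 FPKM in AGS and only at 2.70 and 2.14 FPKM in MKN1. The summed level of 8 leukocyte markers was 12.5 FPKM with siHOXB9 and 12.1 with siScramble in AGS, and 15.3 and 14.1 in MKN1. Most of it came from CSF1R in AGS (8.11 FPKM with siHOXB9 and 5.99 with siScramble, beside 0.784 and 1.20 in MKN1) and from CD68 in MKN1 (12.7 and 12.02 FPKM, beside 2.67 and 3.30 in AGS). Of the same list PTPRC was at 0.0183 FPKM or less and CD3E was listed at 0 in every library. The part of these markers in the results was not tested. The sum of 6 fibroblast markers, with COL1A1 the largest part, was 43.4 FPKM with siHOXB9 and 28.4 with siScramble in AGS, and 52.4 and 41.6 in MKN1, and its part in the results below was not tested. COL1A2, another fibroblast marker, was listed at 0 in all 4, and the 4 endothelial markers with a row summed to at most 2.10 FPKM. In bulk RNA, fewer cells that express a gene and less RNA per cell cannot be told apart.

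The changes are log2 of siHOXB9 over siScramble with 1 FPKM added to both, which understates the change of genes with low values. A gene was counted as past the size rule when it differed at least 2-fold on this scale and reached 1 FPKM or more in one of that line's libraries. In AGS, 9 of the 10 members met this minimum and 1 passed the size rule, NFKBIZ, against 3.89% of all 13252 genes measured. In MKN1, 7 members met the minimum and 0 passed, against 4.05% of 13122 genes. At 1.5-fold, 3 of 9 members were higher in AGS (NFKBIZ, CXCL1 and RELB), where 5.64% of all genes were, and 0 of 7 were in MKN1, where 7.96% of all genes were. CXCL2 in MKN1 was 1.79 times its siScramble FPKM, but fell short of 1.5-fold with 1 FPKM added (change 0.56). The median change of the measured members was 0.28 in AGS, beside -0.06 over all genes, and 0.19 in MKN1, beside 0.09 over all genes. With 1 library per group none of these values within a line has a test. The members were chosen with earlier results of these data known, so their counts beside all genes are a description only.

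**Figure D2:**
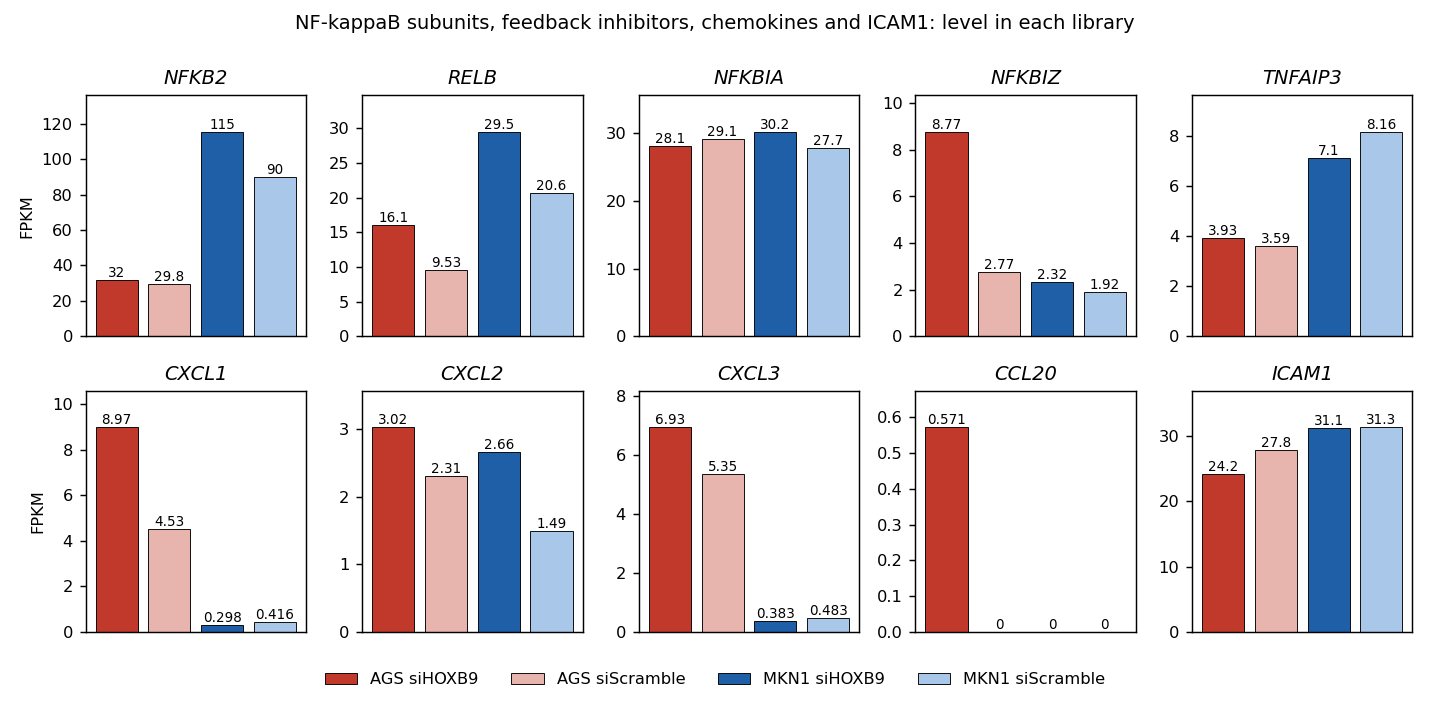
FPKM of each member in the 4 libraries, 1 panel per gene with its own vertical axis from 0; each bar is 1 library, with its value above. NFKBIZ stands at 8.77 FPKM in AGS siHOXB9 and at 1.92 to 2.77 FPKM in the other libraries, and CXCL1 and CXCL3 are under 0.5 FPKM in both MKN1 libraries.

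Of the subunits, RELB was higher with siHOXB9 in both lines. RELB, the partner of p52 in the slower branch, was at 16.1 FPKM in AGS siHOXB9 and 9.53 FPKM in AGS siScramble, and at 29.5 FPKM in MKN1 siHOXB9 and 20.6 FPKM in MKN1 siScramble. The change was 0.70 in AGS and 0.50 in MKN1, or 1.69 and 1.43 times the siScramble FPKM. NFKB2, which encodes p100, was at 32.05 and 29.8 FPKM in AGS siHOXB9 and siScramble, and at 115 and 90.04 FPKM in MKN1 in that order. Its change was 0.10 in AGS and 0.35 in MKN1, and both MKN1 libraries lay above both AGS libraries whichever siRNA was used. RELB (ENSG00000104856.13) lies on chromosome 19 from 45001430 to 45038198 and NFKB2 (ENSG00000077150.18) on chromosome 10 from 102394110 to 102402529 in GRCh38, as GENCODE release 29 places them.

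Of the feedback inhibitors, NFKBIZ was higher with siHOXB9 in AGS while NFKBIA and TNFAIP3 differed by small amounts. NFKBIZ, a nuclear IkappaB protein that also helps switch on some of the target genes, was at 8.77 FPKM in AGS siHOXB9 and 2.77 FPKM in AGS siScramble. In MKN1 it was at 2.32 FPKM with siHOXB9 and 1.92 FPKM with siScramble. The AGS siHOXB9 library thus stood alone, 3.16 times its control (change 1.37), beside a ratio of 1.21 in MKN1 (change 0.19). At the estimated depth the AGS values correspond to about 401 and 132 fragments and the MKN1 values to 90.6 and 81.1, if all came from the longest coding transcript. NFKBIZ (ENSG00000144802.11) spans bases 101827991 to 101861022 of chromosome 3, and no other annotated gene shares its exon bases.

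NFKBIA, the classical IkappaB alpha that holds NF-kappaB in the cytoplasm, was at 28.1 FPKM in AGS siHOXB9 and 29.1 in AGS siScramble, and at 30.2 in MKN1 siHOXB9 and 27.7 in MKN1 siScramble. Its 4 values lay within 27.7 and 30.2 FPKM, the narrowest relative range among the members. The change was -0.05 in AGS, which turns to 0.05 with libraries rescaled to a common total, to 0.02 with centring on the median gene and to 0.01 with quantile normalization, and 0.12 in MKN1. TNFAIP3, which encodes the ubiquitin-editing enzyme A20, was at 3.93 FPKM with siHOXB9 and 3.59 with siScramble in AGS, and at 7.10 and 8.16 FPKM in MKN1. Both MKN1 libraries again lay above both AGS libraries, with a change of 0.10 in AGS and -0.18 in MKN1. NFKBIA (ENSG00000100906.10) lies on chromosome 14 from 35401511 to 35404749. TNFAIP3 (ENSG00000118503.14) lies on chromosome 6 from 137867188 to 137883312 and shares exon bases with the antisense gene AL357060.1, whose reads could not be told apart without strand.

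Of the member chemokines measured in AGS, CXCL1 had the largest ratio of siHOXB9 to siScramble there, and it was close to the detection limit in MKN1. CXCL1, a neutrophil attractant that acts through the receptor CXCR2, was at 8.97 FPKM in AGS siHOXB9 and 4.53 FPKM in AGS siScramble, 1.98 times the control (change 0.85). In MKN1 it was at 0.298 FPKM with siHOXB9 and 0.416 FPKM with siScramble. These MKN1 values correspond to about 2.65 and 4.01 fragments, so a difference there was not detectable at this depth. CXCL3, another CXCR2 ligand, was at 6.93 FPKM with siHOXB9 and 5.35 with siScramble in AGS (change 0.32) and at 0.383 and 0.483 FPKM in MKN1, where about 3.33 and 4.54 fragments stand behind the values.

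CXCL2, the remaining member of the trio, was measured in both lines at low levels. It was at 3.02 FPKM in AGS siHOXB9 and 2.31 in AGS siScramble, and at 2.66 in MKN1 siHOXB9 and 1.49 in MKN1 siScramble. Both siHOXB9 libraries lay above both siScramble libraries, with changes of 0.28 in AGS and 0.56 in MKN1, on an estimated 16.4 to 36.2 fragments per library. Summed over CXCL1, CXCL2 and CXCL3, the level was 18.9 FPKM with siHOXB9 and 12.2 with siScramble in AGS, and 3.34 and 2.39 FPKM in MKN1. CCL20, which attracts CCR6-bearing lymphocytes and dendritic cells, was at 0.571 FPKM in AGS siHOXB9, about 4.13 fragments, and was listed at 0 in the other 3 libraries.

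The 3 CXCL genes lie in the chemokine cluster of chromosome 4. CXCL1 (ENSG00000163739.4) spans bases 73869393 to 73871242 on the forward strand, CXCL3 (ENSG00000163734.4) bases 74036589 to 74038807 and CXCL2 (ENSG00000081041.8) bases 74097035 to 74099293, both on the reverse strand. Their longest coding transcripts share identical runs of up to 97 bases, between CXCL2 and CXCL3, and 77 bases between CXCL1 and CXCL2. Of the 50-base words of CXCL1, 5.73% occur in CXCL2 and 0.573% in CXCL3, so part of the reads of these genes could have been assigned to either. CCL20 (ENSG00000115009.12) lies on chromosome 2 from 227805739 to 227817564.

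ICAM1, the adhesion molecule that leukocytes grip through beta 2 integrins, was at 24.2 FPKM in AGS siHOXB9 and 27.8 in AGS siScramble, and at 31.1 in MKN1 siHOXB9 and 31.3 in MKN1 siScramble. All 4 values lay close together, with changes of -0.19 in AGS and -0.01 in MKN1. ICAM1 (ENSG00000090339.8) lies on chromosome 19 from 10270835 to 10286615 and shares exon bases with the antisense genes AC011511.2 and AC011511.5.

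**Figure D3:**
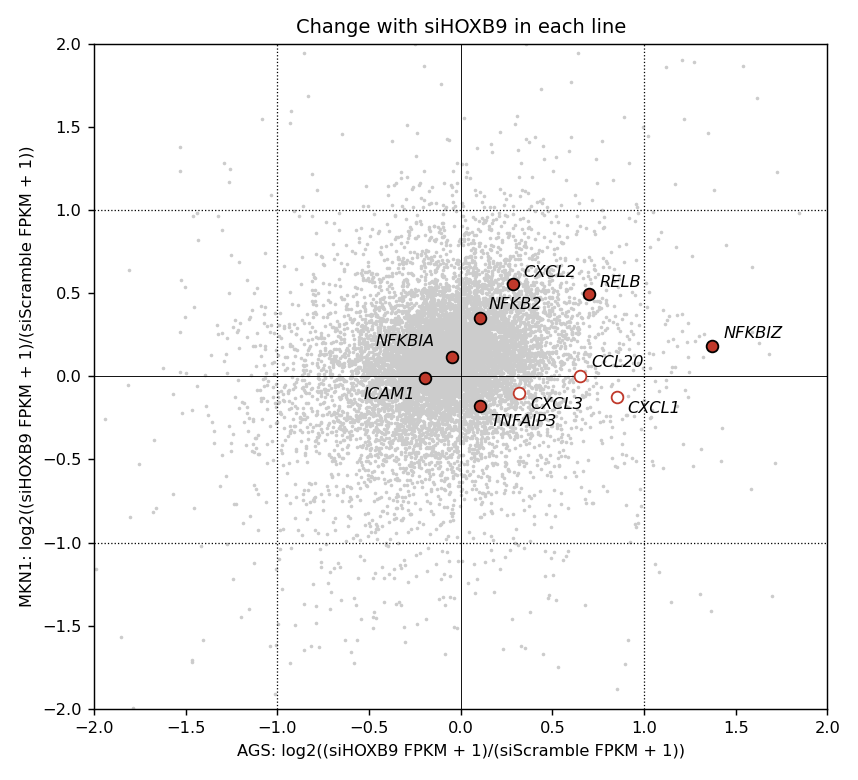
Log2 change with siHOXB9 in AGS (horizontal axis) and MKN1 (vertical axis); grey points are genes that reach 1 FPKM in both lines, filled red points the members that meet this in both lines, open red points those that do not, and dotted lines the 2-fold size rule. Genes beyond 2 in size lie outside the axes. RELB (0.70 and 0.50) and CXCL2 (0.28 and 0.56) lie above 0 in both lines, and NFKBIZ (1.37 and 0.19) passes the size rule in AGS.

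The knockdown was then tested over both lines with limma, with the line and the siRNA as terms and the disagreement of the lines as the only residual degree of freedom. Of 9 members tested 0 passed an adjusted p of 0.05, where 0.00727% of 13758 genes did, and 2 had an unadjusted p under 0.05 (980 of all genes did). These were RELB and NFKBIZ, both higher, where 3.45% of all genes were higher at that level. RELB had an estimate of 0.60 (SE 0.191) and a limma p of 0.0159, which Benjamini-Hochberg adjustment took to 0.616 (0.513 to 1.0 over the alternatives), and was higher in both lines. NFKBIZ had an estimate of 0.78 (SE 0.308) and a limma adjusted p of 0.688, with 0.659 to 1.0 over the alternatives. Limma draws the spread of each gene towards that of other genes. The changes of NFKBIZ were 1.37 in AGS and 0.19 in MKN1, and its SE is smaller than this disagreement alone would give. For RELB, with changes of 0.70 and 0.50, the SE is larger. CXCL2 (0.42, SE 0.219), CXCL1 (0.36, SE 0.280) and NFKB2 (0.23, SE 0.174) had limma adjusted p-values of 0.756, 0.867 and 0.865. The estimates of CXCL3, NFKBIA, TNFAIP3 and ICAM1 lay between -0.10 and 0.11, each smaller than its SE. HOXB9 itself did not pass either (-1.25, SE 0.268, limma adjusted p of 0.355, 0.341 to 1.0 over the alternatives), although it was lower with siHOXB9 in both lines. The fit thus missed the siRNA's own target, and a member that does not pass is not shown to be without an effect. The response of AGS and MKN1 to siHOXB9 could not be tested for a difference, since no residual spread is left within a line.

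The lines themselves differed in part of the members. In the same fit the difference MKN1 minus AGS had an adjusted p under 0.05 and a size of at least 1 for 3 of 9 members, beside 37.1% of all genes. By the adjusted p alone 6 of 9 members passed, beside 59.1% of all genes. NFKB2 was higher in MKN1, by 1.69 on the log2 scale (SE 0.174, limma adjusted p of 0.000177, 4.34e-05 to 0.0434 over the alternatives). CXCL1 differed by -2.45 (SE 0.280, limma adjusted p of 0.000289) and CXCL3 by -2.31 (SE 0.227, limma adjusted p of 0.000138), both lower in MKN1. Both genes reached 1 FPKM in AGS alone, and so entered the fit only through the line where they were high. The counts of members called are therefore not read against the shares over all genes. The adjusted p of CXCL1 reached 0.0703 with no filter on low values and was 0.000258 to 0.0703 over the alternatives. That of CXCL3 was 1.3e-05 to 0.0498.

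RELB (0.93, SE 0.191) and TNFAIP3 (0.86, SE 0.217) were higher in MKN1 and NFKBIZ (-0.96, SE 0.308) was lower, with limma adjusted p-values of 0.00454, 0.0117 and 0.0299 and sizes under 1. Each missed 0.05 in at least 1 alternative, with adjusted p-values of up to 0.0575 for RELB, 0.101 for TNFAIP3 and 0.269 for NFKBIZ. NFKBIA (0.02, SE 0.180), CXCL2 (-0.27, SE 0.219) and ICAM1 (0.26, SE 0.181) did not pass, with limma adjusted p-values of 0.944, 0.316 and 0.255. By mean level the order in MKN1 was NFKB2 (103 FPKM), ICAM1 (31.2), NFKBIA (28.9), RELB (25.0), TNFAIP3 (7.63), NFKBIZ (2.12), CXCL2 (2.08), CXCL3 (0.433), CXCL1 (0.357) and CCL20 (0). In AGS it was NFKB2 (30.9 FPKM), NFKBIA (28.6), ICAM1 (25.98), RELB (12.8), CXCL1 (6.75), CXCL3 (6.14), NFKBIZ (5.77), TNFAIP3 (3.76), CXCL2 (2.67) and CCL20 (0.286). These means are over the siHOXB9 and siScramble libraries of a line, and have no error of their own. In MKN1 the values of RELB overlapped those of NFKBIA, those of NFKBIZ overlapped those of CXCL2, and those of CXCL1 overlapped those of CXCL3. In AGS those of CXCL1, CXCL3 and NFKBIZ overlapped one another, and those of NFKBIZ also those of TNFAIP3 and CXCL2.

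**Figure D4:**
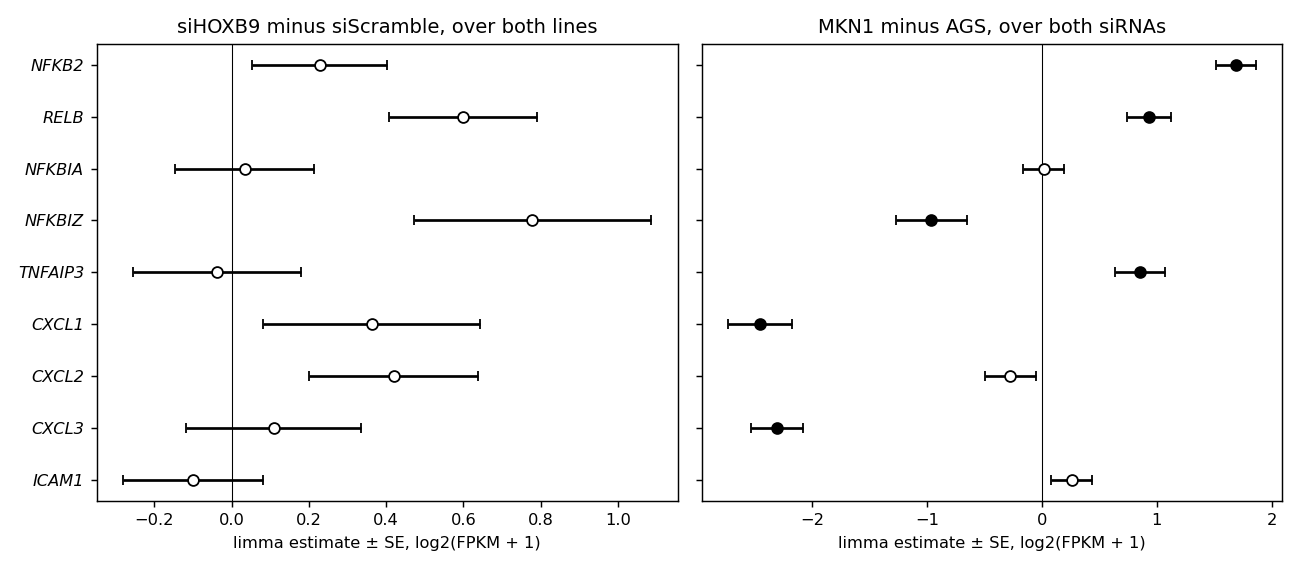
Limma estimates with their SE (bars) on the log2(FPKM + 1) scale for the 9 members tested, for siHOXB9 minus siScramble over both lines on the left and MKN1 minus AGS over both siRNAs on the right; filled points have an adjusted p under 0.05. No point is filled on the left, where RELB (0.60) and NFKBIZ (0.78) lie farthest from 0 relative to their SE or in size, and 6 are filled on the right.

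The wider pathway was read from 8 lists ordered by role. The list medians below stand beside a median change over all genes of -0.06 in AGS and 0.09 in MKN1. Of the upstream ligands, IL18, an interleukin of the IL-1 family, was the one at a high level, with 67.4 FPKM in AGS siHOXB9 and 60.8 in AGS siScramble, and 44.4 and 36.9 FPKM in MKN1. TNFSF10, the death ligand TRAIL, was at 1.06 and 0.272 FPKM in AGS and listed at 0 in MKN1, and IL33 was at 0.302 and 1.04 FPKM in AGS, with changes of 0.69 and -0.65 that passed 2-fold with a pseudocount of 0.1 FPKM (1.64 and -1.50). The rows of TNF, LTA and LTB were at 0 in all 4 libraries. Like TAP1, also at 0, they belong to the MHC stretch of chromosome 6. Of its 172 protein-coding rows 102 were at 0 throughout, so these genes are reported only as listed at 0.

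Of 13 receptors 0 passed the size rule in either line, among 11 measured in AGS and 6 in MKN1. The share of all genes that passed was 3.89% in AGS and 4.05% in MKN1. The median change was -0.13 in AGS and 0.29 in MKN1, beside -0.06 and 0.09 over all genes. TNFRSF12A, the TWEAK receptor, was at 243 FPKM with siHOXB9 and 267 with siScramble in AGS, and at 917 and 737 FPKM in MKN1. LTBR, the lymphotoxin beta receptor that feeds the RELB branch, was at 153 and 159 FPKM in AGS and at 226 and 179 FPKM in MKN1. TNFRSF1A, the main TNF receptor, was at 47.5 and 64.8 FPKM in AGS (change -0.44) and at 94.2 and 78.6 FPKM in MKN1 (change 0.26).

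Of 23 adaptors, ubiquitin enzymes and kinases, 22 were measured in each line and 1 passed the size rule in each, a share close to the 3.89% and 4.05% of all genes in AGS and MKN1. In AGS this was BTRC, the ubiquitin ligase subunit that recognises phosphorylated IkappaB, with 13.6 FPKM in siHOXB9 and 5.19 in siScramble (change 1.23), while in MKN1 it was at 8.58 and 7.30 FPKM. In MKN1 it was RNF31, the catalytic subunit of the linear ubiquitin ligase, with 35.4 FPKM in siHOXB9 and 17.0 in siScramble (change 1.02). The change of RNF31 was 0.88 to 0.94 under the 3 rescalings, short of 2-fold, and its exons overlap those of PSME2. Exons of TNFRSF12A, LTBR, IRAK1, SHARPIN, RELA, TAX1BP1, NFKBIB, CXCL16, CD44, BCL2L1, ITGB2 and CCR6 also overlap those of other annotated genes, so their values could hold reads of these. RBCK1 and SHARPIN, the other subunits of that ligase, changed by -0.41 and 0.14 in AGS and by 0.17 and 0.46 in MKN1, and IRAK1, a kinase of the interleukin 1 and Toll-like receptor route, by -0.29 and 0.10. The median change of the list was 0.10 in AGS and 0.20 in MKN1.

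Among the 5 subunits 0 passed the size rule, with medians of 0.25 in AGS and 0.17 in MKN1. RELA, the p65 subunit, was at 37.5 FPKM in AGS siHOXB9 and 31.3 in AGS siScramble, and at 85.5 and 76.9 FPKM in MKN1. Among 16 inhibitors and feedback genes NFKBIZ alone passed the size rule in AGS and 0 did in MKN1. Over all genes 3.89% and 4.05% passed. The inhibitors and feedback genes had medians of 0.10 and 0.13. The highest of them were TAX1BP1, a ubiquitin-binding partner of A20 (108 and 91.9 FPKM in AGS, 63.0 and 65.8 in MKN1), TNIP1, another A20 partner (58.1 and 52.0 in AGS, 80.6 and 60.6 in MKN1), and NFKBIB, an IkappaB (64.3 and 68.7 in AGS, 60.7 and 49.0 in MKN1), each with siHOXB9 first.

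Of 19 chemokines 9 were measured in AGS and 5 in MKN1. CXCL10, an interferon-induced ligand of CXCR3, was the one past the size rule, with 5.80 FPKM in AGS siHOXB9 and 1.51 in AGS siScramble (change 1.44), beside 0.206 and 0.0952 FPKM in MKN1. Over all genes 3.89% passed in AGS and 4.05% in MKN1. The list median was 0.32 in AGS and 0.24 in MKN1. CXCL16, which is made as a membrane-bound chemokine, was the highest at 192 FPKM with siHOXB9 and 183 with siScramble in AGS, and at 10.5 and 11.8 FPKM in MKN1. Between the lines, 6 of 10 chemokines tested were lower and 2 higher in MKN1 at an adjusted p under 0.05 in limma and a size of at least 1, which 37.1% of all genes passed in either direction (2229 higher and 2880 lower in MKN1, of 13758). One of those higher was CXCL8, listed under its older symbol IL8 and named after its values were seen. CXCL8, the best known CXCR2 ligand, was at 4.23 and 3.43 FPKM in MKN1 and at 0.561 and 0.214 FPKM in AGS (difference 1.81, SE 0.213, limma adjusted p of 0.000336), opposite in direction to CXCL1 and CXCL3. Of the chemokines called, CXCL1, CXCL3, CXCL10, CXCL11 and CXCL17 reached 1 FPKM in AGS alone, and CXCL8 and CCL2 in MKN1 alone. They entered the fit only through the line where they were high. The count of chemokines called therefore cannot be read against the share over all genes.

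Of 33 other target genes 21 were measured in AGS, where 0 passed the size rule, beside 3.89% of all genes, and the median was -0.17. In MKN1 24 were measured and 1 passed, beside 4.05% of all genes, with a median of 0.07. That one was IL11, an interleukin 6 family cytokine, with 25.2 FPKM in MKN1 siHOXB9 and 80.4 in MKN1 siScramble (change -1.64), beside 1.40 and 0.885 FPKM in AGS. CD44, a hyaluronan receptor, was at 242 and 243 FPKM in MKN1 and at 19.2 and 27.8 FPKM in AGS. BCL2L1, which encodes the survival protein BCL-XL, was at 163 and 202 FPKM in AGS and at 95.3 and 91.6 FPKM in MKN1, and SDC4, a syndecan, at 153 and 102 FPKM in AGS and at 51.3 and 47.2 FPKM in MKN1. Of the list of chemokine and ICAM1 receptors, CXCR1 and ACKR1 were listed at 0 in every library and CXCR2, CCR6, ITGAL, ITGAM and ITGB2 stayed under 1 FPKM. ACKR3, a decoy receptor for CXCL12, which is not among the 10 members, was the one above that level, with 11.9 and 8.79 FPKM in MKN1 and 0 listed in AGS.

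**Figure D5:**
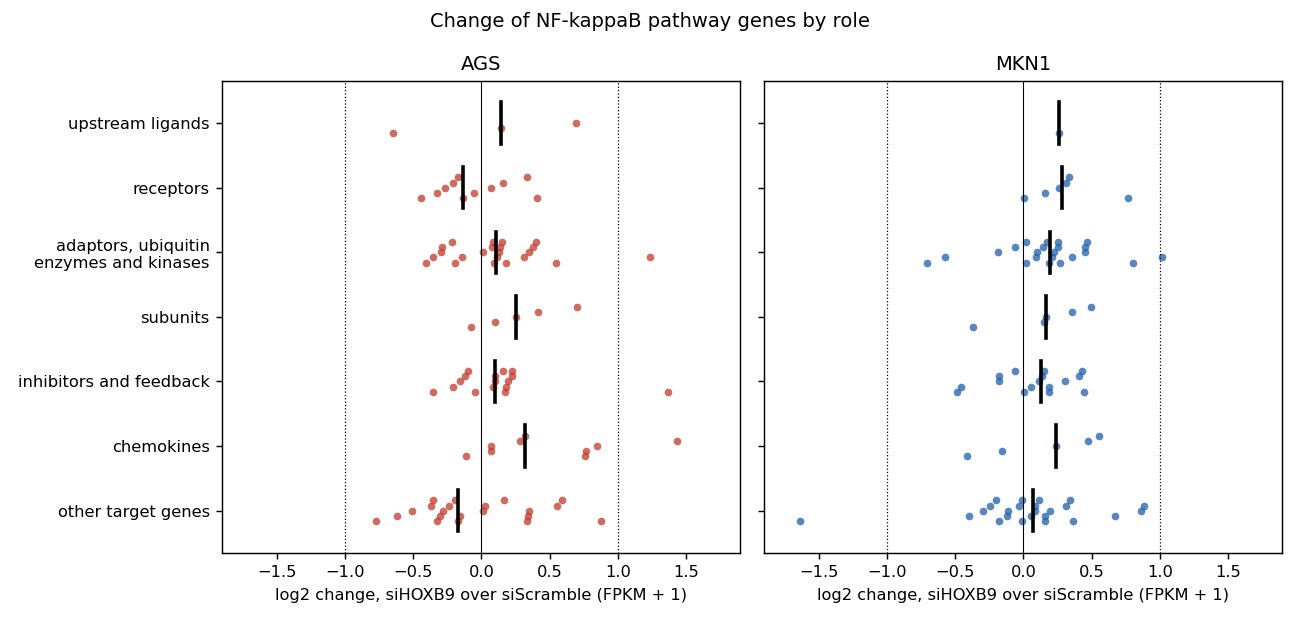
Log2 change with siHOXB9 of pathway genes that reach 1 FPKM in the line, in rows by role, for AGS (left) and MKN1 (right). Black bars are list medians and dotted lines the 2-fold size rule. The list of chemokine and ICAM1 receptors, with no gene measured in AGS, is not drawn. BTRC (1.23), NFKBIZ (1.37) and CXCL10 (1.44) lie past the rule in AGS, and RNF31 (1.02) and IL11 (-1.64) in MKN1.

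Genes with the pattern most like 2 of the members were sought over the 4 libraries among 10968 genes that reach 5 FPKM, by the distance between log2 values centred on each gene's mean. Nearest to CXCL1 were ESRRG, an orphan nuclear receptor (distance 0.082), ELOVL6, a fatty acid elongase (0.167), IHH, a hedgehog ligand (0.171), C6orf141 (0.174) and PKIB, an inhibitor of protein kinase A (0.175). ESRRG was at 6.86 FPKM in AGS siHOXB9 and 3.60 in AGS siScramble, and at 0 and 0.144 FPKM in MKN1. Nearest to NFKBIA were KLHDC10 (0.0077), B3GNT9 (0.020), UBXN1 (0.022), HIF1A, the hypoxia factor (0.025), and MED21, a Mediator subunit (0.027), all at nearly equal levels in the 4 libraries. With 4 libraries such likeness is a description only.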

How the data were processed

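RNA of 4 libraries was analysed, 1 per cell line and siRNA. Per the labels, poly-A RNA was fragmented, reverse transcribed with random primers and sequenced, and no step that keeps strand is named. The authors deposited 1 table of FPKM values by gene symbol, and per the submitters' processing notes the builds were GRCh38 and hg38. For the aligner and the counting tool, a name is not given in the sources used here. Column sums were 777152 to 831098, so the columns do not share a common total. Depth was estimated from low values of genes with 1 transcript, shortened by 260 bases, of which 55.2% to 56.9% lay within 0.05 of whole fragments. Fragment numbers are therefore rough, and no count test was run.

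Changes used log2(FPKM + 1). Limma 3.58.1 in R 4.3.3 was fitted with an intensity trend to the 13758 genes that reached 1 FPKM in 2 or more libraries, two-sided, with Benjamini-Hochberg adjustment, and was tested on simulated data. P-values rest on the spread between these libraries alone, with the spread of each gene drawn by limma towards a trend over all genes. The alternatives were another pseudocount, filter, scaling, size rule, variance option or design. Members and lists were chosen with earlier results of these data known. Genes named were all members, up to 4 genes per list and line past the size rule, the 3 highest of each list, and the 5 nearest in pattern to CXCL1 and NFKBIA. Positions are from GENCODE release 29 and windows from RefSeq (GRCh38.p14), and synonyms were matched through RefSeq.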

Additional observations from a re-analysis of the deposited data

Results flagged for a closer look

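Changes with siHOXB9 of opposite sign in the 2 lines mark the following genes, among the members and the pathway genes named by the stated rule. Other listed genes were not screened here, and some had opposite signs with larger differences, such as C3 (1.29) and MYD88 (-0.95). The difference between the lines was not tested, since each line has 1 library per siRNA. Values are the MKN1 change minus the AGS change on the log2 scale. Over all genes measured the median change was -0.06 in AGS and 0.09 in MKN1. Differences above 0 thus lie in the direction of these medians, and the values are not corrected for it. Among the members it was 0.17 for NFKBIA (0.12 in MKN1 and -0.05 in AGS, where rescaling turns the sign) and -0.28 for TNFAIP3 (-0.18 and 0.10). Among the receptors it was 0.45 for TNFRSF12A, 0.39 for LTBR (0.33 and -0.05, where rescaling gives 0.04) and 0.70 for TNFRSF1A. Among the signal transducers it was 0.39 for IRAK1 and 0.58 for RBCK1. It was -0.29 for TAX1BP1, 0.40 for NFKBIB (0.30 and -0.09, where rescaling gives 0.0007) and -0.23 for CXCL16. Among the other target genes it was -1.99 for IL11, with a change of -1.64 in MKN1 and 0.35 in AGS, and 0.36 for BCL2L1, whose MKN1 change of 0.06 turns to -0.06 at the lowest under the rescalings.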

How the results depend on the processing

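The count of members past the size rule in AGS was 1 under every alternative except the 1.5-fold rule, where it was 3, and in MKN1 it was 0 throughout. Counts over all genes moved more. In AGS 452 genes were higher and 585 lower with a pseudocount of 0.1 FPKM, 101 and 155 with a filter of 5 FPKM and 747 and 1109 at 1.5-fold, beside 223 and 293. There rescaling to a common total gave 278 higher and 235 lower, centring 274 and 237 and quantile normalization 233 and 258. In MKN1 these settings gave 570 and 455, 128 and 129, and 1045 and 707, beside 276 and 255, while rescaling gave 230 and 283, centring 216 and 304 and quantile normalization 240 and 305. Over both lines limma called 0 genes higher and 1 lower. With the robust option these were 3 and 4 and with a filter of 5 FPKM 4 and 4, and 0 were lower without a term for the line, with a pseudocount of 0.1 FPKM, with no filter and under the 3 rescalings. No member was called in any of these. Between the lines MKN1 was higher in 1271 genes and lower in 1479 with no filter, and 3387 and 4325 at 1.5-fold, beside 2229 and 2880. The 1.5-fold rule called 6 members in place of 3, beside the 3387 and 4325 of all genes. Quantile normalization called 5 members. Its count over all genes is not given here, so the 5 are not read as a result about the members. The causes were not tested. The line term of limma already pairs the siRNAs within a line, and no paired analysis by replicate number was possible because the labels give none. Leaving out a library leaves no comparison within its line. Depth limits CXCL1, CXCL3 and HOXB9 in MKN1 and CCL20 in both lines.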
